A study of Sus scrofa domesticus with 4 samples.

Results

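Messenger RNA of 9 genes that break down the extracellular matrix or hold that breakdown in check was followed in the anterior pituitary of early pregnant and cyclic pigs. They were the gelatinases MMP2 and MMP9, the tissue inhibitors of metalloproteinases TIMP1, TIMP2 and TIMP3, the hyaluronidases HYAL1 and HYAL2, and the plasminogen activators PLAU and PLAT. Every array probe whose RefSeq accession leads to one of these genes in the pig annotation was taken, which gave 20 probes of 43603 for 8 of the 9 genes, among 3029 genes that could be named on the array. TIMP3 had no probe by this rule. Of the 20 probes, 15 stood well above background in all 8 channels, 1 stood above it in 0 channels, and 17 were bright enough to be tested.

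The pregnant group held 4 gilts bred naturally and killed on days 15 to 16 of pregnancy, and the cyclic group held 4 gilts killed on days 15 to 16 of the estrous cycle. All were mature Large White x Polish Landrace animals. On each of 4 two-colour arrays a pregnant gilt was hybridised with a cyclic one, so an array is 1 independent pair. By the label fields the pregnant RNA carried Cy3 on arrays 1 and 3 and was labelled with Cy5 on the other two, whereas the text of the labelling protocol names only the pairing of pregnant with Cy3. The label fields were followed, and the authors' deposited table turns its ratios in the same way. With Cy3 for the pregnant animal on all 4 arrays the estimate of all 8 measured genes changed its sign, HYAL2 to 0.24. The directions of these 8 genes below therefore rest on the label fields. The array ratios of every gene rest on them too, while the estimates of CTSB, CSTB, GUSB and HYAL3, named below, kept their sign.

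The matrix around pituitary cells is made of collagens, laminins, proteoglycans and hyaluronan. Gelatinases cleave denatured and basement membrane collagens, and TIMPs bind the active site of metalloproteinases and block it. Plasminogen activators turn plasminogen into plasmin, a protease that degrades matrix and can activate metalloproteinase precursors. Hyaluronidases cut the long sugar chain hyaluronan into fragments, which lysosomal enzymes then take apart.

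The tissue label was met by its defining markers, since all 7 hormone genes looked for (GH1, PRL, POMC, LHB, FSHB, TSHB and CGA) were well above background in all 8 channels. OXT, a marker of the neural lobe, was also above background in 8 channels, and PCSK2, a marker of the intermediate lobe among other cells, in 7. Detection does not show that partners held equal amounts. The log2 ratios of pregnant over cyclic on arrays 1 to 4 were -1.67, 4.48, -3.02 and -4.20 for TSHB. They were 1.43, -0.55, -0.82 and 1.56 for PCSK2, while those of LHB lay between -0.78 and -0.12. The share of spots well above background ranged from 50.4% to 60.4% in pregnant channels and from 52.5% to 66.5% in cyclic channels, with 0 saturated spots. The number of arrays limits the precision. Across all features, which are not independent replicates, the ratios of pairs of arrays correlated between -0.27 and 0.32.

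Values are log2 intensities of single animals or log2 ratios of pregnant over cyclic within an array, and an error after ± is the limma standard error unless SD is written. That standard error is taken after a gene-specific dye effect, and limma moderates it toward a value shared by all features. It is therefore not the scatter of the single gene alone. Of the 8 genes tested, 1 reached an unadjusted p under 0.05, where 7.22% of the 18858 features did, and 0 passed limma's adjusted threshold of 0.05, as did 0.0% (0 features) of the whole table. An estimate below 0 was found for 5 genes, against 54.3% of all features. The median estimate of the 8 genes was -0.09, and that of all features was -0.02. The median over the 8 genes was -0.09, -0.23, -0.16 and 0.03 on arrays 1 to 4. The median of the estimates was -0.04 without array 2 and -0.17 without array 4. Fits without an array, here and below, kept the dye effect. In them the array alone in its dye orientation weighed as much as the other arrays together.

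HYAL2 was the gene with the lowest p and the 1 gene whose groups did not overlap. It encodes a hyaluronidase that is anchored to the cell surface and cuts high-molecular-weight hyaluronan. Its brighter probe stood at 10.696, 10.31, 10.15 and 10.28 in the pregnant animals of arrays 1 to 4, against 10.93, 11.17, 10.82 and 11.27 in the cyclic animals. All 4 pregnant animals lay below the lowest cyclic animal. Of all features, 1.89% had groups that did not overlap, in either direction. The smallest distance between partners was on array 1 and the largest on array 4. The 4 ratios were -0.24, -0.86, -0.66 and -0.98 (SD 0.33, n = 4 arrays), and the limma estimate was -0.69 ± 0.12. This is a level of 0.62 of the cyclic one, with a 95% interval from 0.51 to 0.76. HYAL2 had an unadjusted limma p of 0.00178 and an adjusted p of 0.647.

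The second HYAL2 probe, a dimmer one, gave the same separation. It stood at 8.00, 7.87, 7.98 and 8.02 in the pregnant animals, against 8.10, 8.65, 8.35 and 8.69 in the cyclic animals. Its ratios were -0.11, -0.78, -0.37 and -0.67, below 0 on 4 of 4 arrays, with a mean of -0.48 ± 0.31 (SD, n = 4). In the fit of every probe it had an unadjusted p of 0.00487 and an adjusted p of 0.605. In the authors' deposited table the brighter probe stood at -0.17, -0.85, -0.71 and -1.06, and the dimmer probe at 0.13, -0.85, -0.41 and -1.09. Array 1 was thus the array with the smallest difference for both probes and in both ways of preparing the values, and in the authors' table the dimmer probe was above 0 there. The unadjusted p of HYAL2 stayed under 0.05 with each array left out, with estimates of -0.79 to -0.58. Flipping the signs of the 4 ratios, as an exact two-sided permutation test, gave p = 0.13, the smallest that this number of arrays allows.

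**Figure D1:**
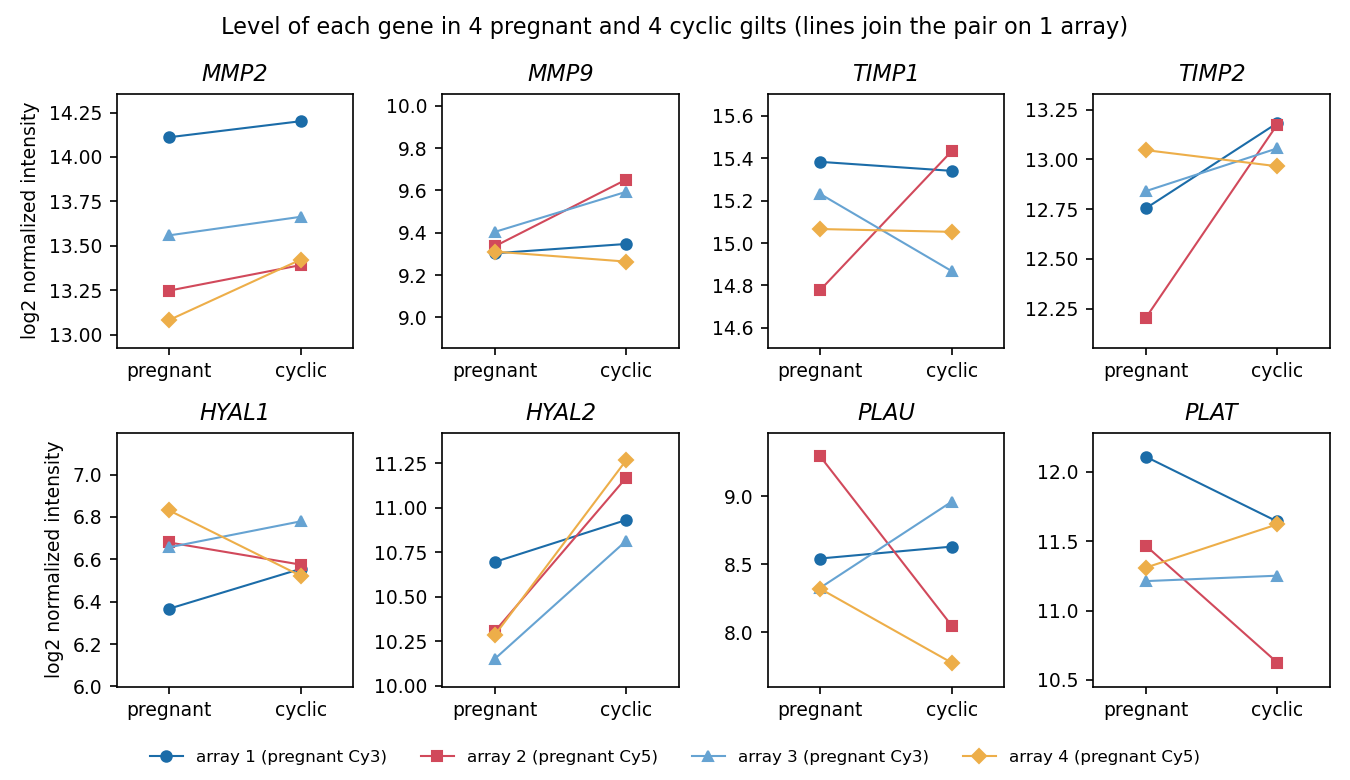
Log2 normalized intensity (vertical axis) of the brightest probe of each of the 8 measured genes in 4 pregnant and 4 cyclic gilts, with a line joining the animals that shared an array and its colour giving the array and its dyes. For HYAL2 the pregnant animals, between 10.15 and 10.696, all lie below the cyclic animals, between 10.82 and 11.27, while the groups of the other 7 genes overlap.

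HYAL1, the hyaluronidase of lysosomes and plasma, was close to the background of the array. One of its 2 probes was above background in 0 of 8 channels. The other was above it in 2 pregnant and 3 cyclic channels, and these were all 4 red channels and 1 green channel, so its detection went with the dye. That probe stood at 6.37, 6.68, 6.66 and 6.83 in the pregnant animals, against 6.55, 6.57, 6.78 and 6.52 in the cyclic animals. The groups overlapped, and the ratio had 1 sign on arrays 1 and 3 and the other on arrays 2 and 4. HYAL1 was estimated at 0.03 ± 0.10 with a 95% interval from -0.23 to 0.28 (limma adjusted p = 0.950). It was 0.04, 0.08, 0.0093 and -0.03 without arrays 1, 2, 3 and 4 in turn. In the RefSeq order of genes of Sscrofa11.1, HYAL1 and HYAL2 are direct neighbours, and HYAL3 follows beyond HYAL1 with NAT6 between them.

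The gelatinases lay within a narrow range. MMP2, gelatinase A, is typically a product of stromal cells. It stood at 14.11, 13.25, 13.56 and 13.08 in the pregnant animals, against 14.20, 13.39, 13.66 and 13.42 in the cyclic animals. Arrays differed from each other by more than partners did, and array 1 was highest in both groups. In every pair the pregnant animal was the lower one. The ratios were -0.09, -0.14, -0.10 and -0.34, with an SD over arrays of 0.12 that was smaller than in all but 9.82% of features. MMP2 was estimated at -0.17 ± 0.10, with a 95% interval from -0.42 to 0.08 (limma unadjusted p = 0.145, adjusted p = 0.656).

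The second MMP2 probe gave -0.23, -0.20, -0.25 and -0.28, which is a mean of -0.24 ± 0.03 (SD, n = 4). Both probes were thus below 0 on 4 of 4 arrays. In the fit of every probe the second one had a 95% interval from -0.48 to 0.01 and an unadjusted p of 0.0539 (limma adjusted p = 0.605). One sign on all 4 arrays was found for 2 of the 8 genes, MMP2 and HYAL2, and for 13.9% of all features. Both were below 0 on all 4, as were 7.43% of all features.

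Fibroblast markers were looked at beside MMP2, because RNA of mixed cells cannot tell fewer cells of a type from less RNA per cell. Of the 7 fibroblast markers listed 3 were measured and tested, COL1A2 at -0.44 ± 0.21, DCN at -0.10 ± 0.16 and LUM at -0.08 ± 0.14. Their summed intensity ranged from 8126 to 12859 in pregnant animals and from 9321 to 15449 in cyclic animals. The arrays did not share a sign for any of the 3 (1 of 4 arrays was above 0 for COL1A2 and 2 of 4 for DCN and LUM). LUM had 8 other tested probes, of which 1 had the same sign as its estimate, while all 3 other probes of DCN did. Whether stromal content had a part in the MMP2 ratio was not tested.

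MMP9, gelatinase B, is made mainly by leukocytes and other activated cells. Its brighter probe stood at 9.30, 9.34, 9.40 and 9.31 in the pregnant animals, against 9.35, 9.65, 9.59 and 9.26 in the cyclic animals. Pregnant animals were close to each other, and cyclic animals spread to both sides of them. The ratios were -0.04, -0.31, -0.19 and 0.05, and the estimate was -0.13 ± 0.11 with a 95% interval from -0.41 to 0.16 (limma adjusted p = 0.749). It was -0.03 without array 2 and -0.22 without array 4. The other MMP9 probe was above background in 3 of 8 channels, all red, and was not tested. Of the 8 macrophage markers 6 were tested, 2 above and 4 below 0. AIF1 was estimated at 0.38 ± 0.14 and lay above 0 on 4 of 4 arrays. It was the 1 marker of the list at an unadjusted threshold of 0.05 (limma unadjusted p = 0.0411, adjusted p = 0.647). Of all features 7.22% were at that threshold, and 13.9% had 1 sign on all 4 arrays. The 6 had a median of -0.06 and a summed intensity between 6801 and 11829 in pregnant animals and between 7509 and 11859 in cyclic animals. Their part in the MMP9 ratio was not tested. Of the 5 neutrophil markers 2 had a probe and 0 were bright enough to be tested.

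Among the inhibitors, TIMP2 had the larger estimate. TIMP2 blocks metalloproteinases and also helps to activate the MMP2 precursor at the cell surface. Its single probe stood at 12.75, 12.20, 12.84 and 13.05 in the pregnant animals, against 13.18, 13.17, 13.06 and 12.97 in the cyclic animals. Of the pregnant animals 3 lay below the lowest cyclic animal, and the pregnant animal of array 4 lay within the cyclic range. The cyclic animals were close to each other, with an SD of 0.10, while the pregnant animals had an SD of 0.36. The ratios were -0.43, -0.97, -0.22 and 0.08, and TIMP2 was estimated at -0.38 ± 0.19 with a 95% interval from -0.87 to 0.10 (limma unadjusted p = 0.0996, adjusted p = 0.647). That estimate depended on single arrays: it was -0.12 without array 2 and -0.65 without array 4, where the unadjusted p was 0.00795 (limma adjusted p over its alternatives between 0.357 and 1).

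TIMP1, an inhibitor that many cells secrete, differed in both directions. Its brightest probe stood at 15.38, 14.78, 15.23 and 15.07 in the pregnant animals, against 15.34, 15.43, 14.87 and 15.05 in the cyclic animals. The lowest of the 8 was the pregnant animal of array 2 and the highest was its cyclic partner. The ratios were 0.04, -0.66, 0.36 and 0.01, with an estimate of -0.06 ± 0.15 and a 95% interval from -0.44 to 0.32 (limma adjusted p = 0.921). It was 0.02, 0.11, -0.14 and -0.23 without arrays 1, 2, 3 and 4 in turn. The 2 other TIMP1 probes, both above background in all 8 channels, had the same order of arrays at the ends. Array 2 was lowest at -1.35 and -1.17, array 3 was highest at 0.33 and 0.23, and their means were -0.30 ± 0.73 and -0.30 ± 0.61 (SD, n = 4). Array 2 was therefore less negative by the brightest probe than by the others, a range of 0.69 between the 3 probes on that array against at most 0.24 on arrays 1, 3 and 4.

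**Figure D2:**
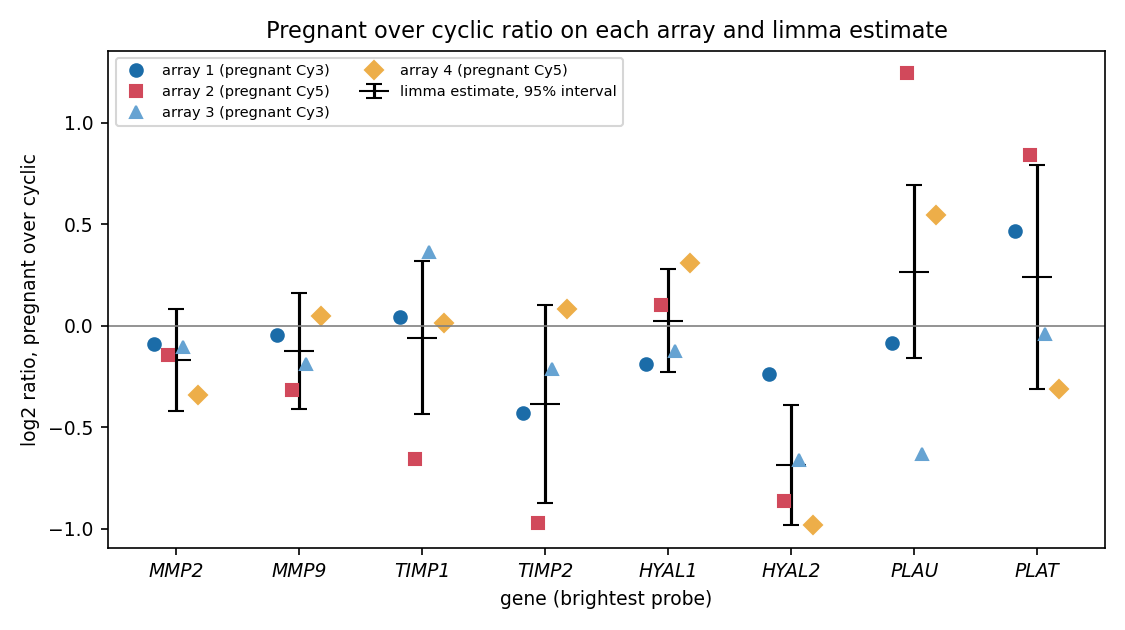
Log2 ratio of pregnant over cyclic (vertical axis) for the brightest probe of each gene, with 1 coloured point per array and the limma estimate with its 95% interval in black. The interval of HYAL2, from -0.98 to -0.39, is the 1 interval that leaves out 0, and PLAU and PLAT have points on both sides of 0 that lie far apart.

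The plasminogen activators had estimates above 0 and, by the brightest probes, the widest spread of the genes. The dimmer TIMP1 probes, with SDs of 0.73 and 0.61, spread more than the brightest PLAT probe, with 0.52. PLAU, the urokinase type, stood at 8.54, 9.29, 8.33 and 8.32 in the pregnant animals, against 8.63, 8.05, 8.96 and 7.78 in the cyclic animals. The pregnant animal of array 2 was the highest of all and the cyclic animal of array 4 the lowest. The ratios were -0.09, 1.24, -0.63 and 0.54, with an SD of 0.81 that was larger than in 97.0% of features. The signs followed the dye: arrays on which the pregnant animal carried Cy5 were above 0 and the others below. The fitted excess of red over green was 0.63 (limma unadjusted p = 0.0124), where 10% of all features had a dye effect at an unadjusted p under 0.05. Beside that dye effect PLAU was estimated at 0.27 ± 0.17, with a 95% interval from -0.16 to 0.69 (limma adjusted p = 0.663). The estimate was 0.13, 0.09, 0.40 and 0.44 without arrays 1, 2, 3 and 4 in turn, and -0.12 when the normexp background fit used every spot. The second PLAU probe was above background in 3 of 8 channels, all red, and was not tested.

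PLAT, the tissue-type activator, is known from endothelium and from neural and endocrine cells. Its brightest probe stood at 12.11, 11.47, 11.21 and 11.31 in the pregnant animals, against 11.64, 10.63, 11.25 and 11.62 in the cyclic animals. The pregnant animal of array 1 was the highest and the cyclic animal of array 2 the lowest, and the groups overlapped. The ratios were 0.47, 0.84, -0.04 and -0.31, which gave 0.24 ± 0.22 with a 95% interval from -0.31 to 0.79 (limma adjusted p = 0.752). It stood at 0.11, -0.05 and 0.37 without arrays 1, 2 and 3 in turn, and at 0.53 without array 4, where the unadjusted p was 0.0329 (limma adjusted p over its alternatives between 0.425 and 1).

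The differences between arrays were shared by the probes of PLAT. It had 6 probes, of which 5 were above background in all 8 channels. On array 2 these 5 lay between 0.62 and 0.93, on array 1 between 0.39 and 0.82, and on array 4 between -0.61 and -0.31. Array 3 held both signs, between -0.13 and 0.24. The means of the 5 probes lay between 0.20 and 0.27, and their SD over the arrays between 0.52 and 0.63, so the arrays differed by more than the probes did. The sixth probe was above background in 5 channels and had a mean of 0.11 ± 0.12 (SD, n = 4). Of the 7 endothelial markers 5 were tested, 1 above and 4 below 0, with a median of -0.21. CDH5 was the 1 above, at 0.51 ± 0.25, and its 1 other probe had the opposite sign. The 5 had a summed intensity between 4931 and 6361 in pregnant animals and between 4903 and 8174 in cyclic animals. Their part in the PLAT ratio was not tested.

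**Figure D3:**
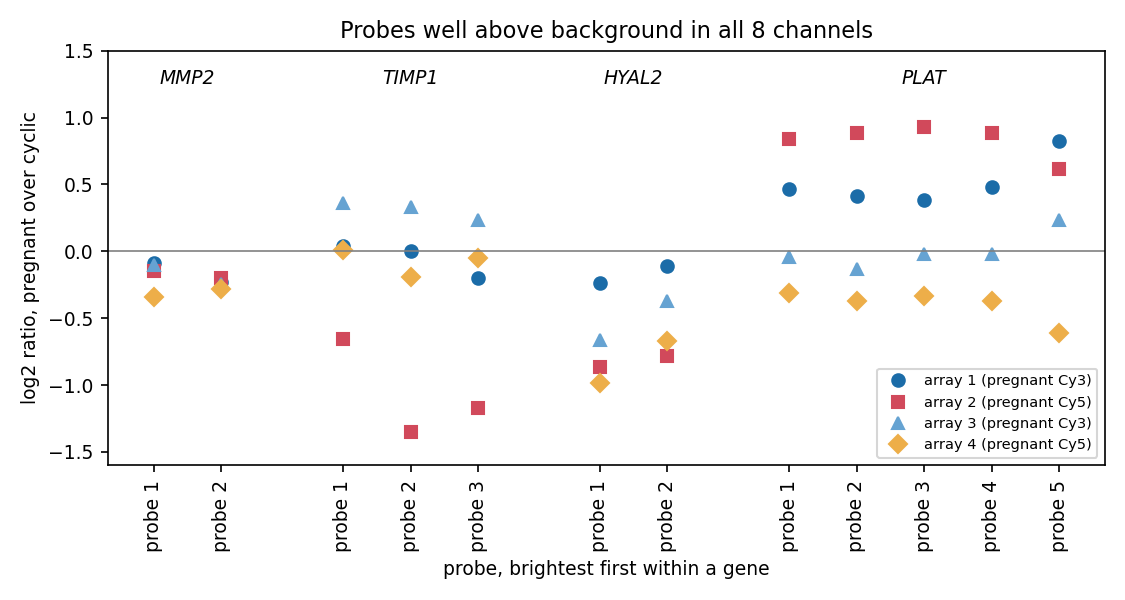
Log2 ratio of pregnant over cyclic (vertical axis) on each of the 4 arrays for every probe above background in all 8 channels of the 4 genes with several such probes, brightest probe first. The 5 PLAT probes repeat the same spread of arrays, with array 4 below 0 in each, and the 2 probes of HYAL2 and of MMP2 are below 0 on all arrays.

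Other genes of the same processes were taken from 3 lists, and members of the lists with low or no signal were not tested. Of 57 other matrix proteases 18 had a probe and 10 were tested, 5 of them above and 5 below 0, with a median of 0.03. At an unadjusted p under 0.05 were 0 higher genes and 1 lower gene, where 3.03% and 4.18% of all features were. CTSD, the lysosomal aspartic protease cathepsin D, was that gene. Its ratios were -0.62, -0.97, -0.41 and -0.25 on arrays 1 to 4, and it was estimated at -0.57 ± 0.15 (limma unadjusted p = 0.012, adjusted p = 0.647). Its 1 other probe had the same sign. The estimate was -0.39 without array 2 and -0.74 without array 4. CTSB, the cysteine protease cathepsin B and the brightest of the list, was estimated at 0.14 ± 0.11, with 0.64, -0.09, 0.30 and -0.30 on arrays 1 to 4. Its 3 other probes had the opposite sign. Leaving out arrays 1, 2 and 3 in turn gave 0.05, 0.085 and 0.22. MMP14, the membrane-bound activator of the MMP2 precursor, named for that role after its value was seen, stood at 0.13 ± 0.13, and at -0.01 without array 2 and 0.28 without array 4.

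Of 25 other protease inhibitors and plasminogen receptors 10 had a probe and were tested, 3 above and 7 below 0, with a median of -0.15. At an unadjusted p under 0.05 limma had 0 of the 10, while the fit of separate channels had 4, where 13.2% of all features were, and the fit without array 4 had 2, where 11.5% were. One sign on all 4 arrays was found for 4 of them, and for 13.9% of all features. CST3, the cysteine protease inhibitor cystatin C and the brightest of the list, was estimated at -0.17 ± 0.11, with -0.16, -0.41, -0.05 and -0.05 on arrays 1 to 4. It was -0.08 without array 2 and -0.26 without array 4. CSTB, the intracellular inhibitor cystatin B, stood at 0.04 ± 0.13, with both signs among its arrays, and at -0.01, 0.16, 0.09 and -0.09 without arrays 1, 2, 3 and 4 in turn.

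Of 25 other genes of hyaluronan synthesis, binding and breakdown 13 had a probe and 10 were tested. Of these, 9 were above and 1 was below 0, where 54.3% of all features were below, with a median of 0.16. At an unadjusted p under 0.05 were 2 of the 10, where 7.22% of all features were. The lower one was HEXA, the alpha subunit of a lysosomal hexosaminidase, which removes end sugars from hyaluronan fragments and from gangliosides. Its ratios were -0.27, -0.30, -0.16 and -0.38, and it was estimated at -0.27 ± 0.10 (limma unadjusted p = 0.0347, adjusted p = 0.647). HEXA missed the unadjusted threshold with any 1 array left out, at p between 0.0781 and 0.163. The list's count was 1 without array 1, 2 or 4 in turn, where 3.39%, 3.27% and 11.5% of all features were at that threshold. It was 3 without array 3, where 8.86% were. GUSB, the lysosomal beta-glucuronidase that works on the same fragments, stood at 0.16 ± 0.10, with array 2 just below 0, and at 0.11 without array 4. HYAL3, the hyaluronidase on the far side of NAT6 from HYAL1, named for that place after its value was seen, stood at 0.07 ± 0.12 with a 95% interval from -0.22 to 0.37. It was 0.14, -0.02, 0.005 and 0.16 without arrays 1, 2, 3 and 4 in turn.

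The genes whose levels ran most like those of HYAL2 over the 8 animals were sought among 2405 other named genes, as a description. RAP2B, a small GTPase of the Ras family, had a Pearson correlation of 0.95 with HYAL2, CHGB, the granule protein chromogranin B, 0.91, and LSM2, an RNA-binding protein of the spliceosome, 0.90. The animals of a pair share an array, and levels also share the dye and the group. Their estimates were -0.30 ± 0.10 for RAP2B, -0.16 ± 0.10 for CHGB and -0.24 ± 0.10 for LSM2, each with ratios below 0 on 4 of 4 arrays. HYAL2 was also below 0 on every array, with an estimate larger in size, as were 7.43% of all features below 0 on all 4. The levels used to choose the 3 genes hold the group difference, so a shared direction was partly built in by the choice.

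**Figure D4:**
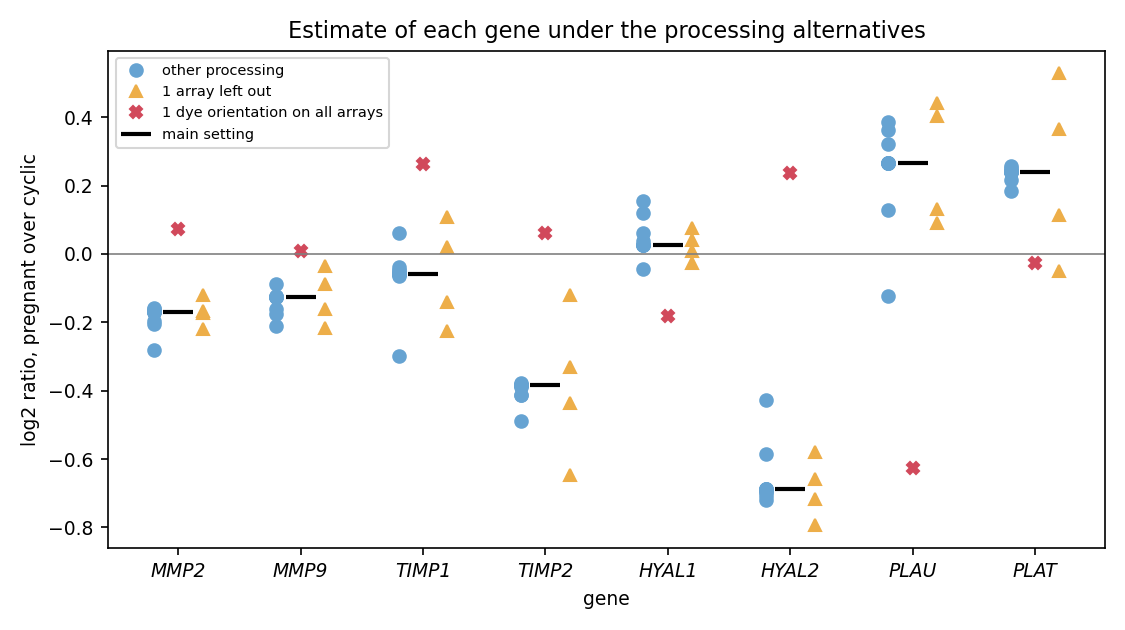
Estimated log2 ratio of pregnant over cyclic (vertical axis) of each gene in the main setting (black bar), under other ways of processing (blue), with 1 array left out (yellow) and with Cy3 given to the pregnant animal on every array (red cross). HYAL2 lies between -0.79 and -0.43 in all settings but the single dye orientation, at 0.24. With that setting left out, TIMP1, HYAL1, PLAU and PLAT still have values on both sides of 0.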

How the data were processed

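All arrays shared 1 slide and 1 scan. The deposited scanner files hold the median intensity of each spot and its local background in both channels, per the file headers from Agilent Feature Extraction 10.7.3.1, and that software's processed intensity and log10 ratio. The authors' deposited table holds log2 ratios. They matched the processed red to green ratio, turned to pregnant over cyclic by the label fields, to within 0.001 for all 43553 probes with a single spot, and column medians were 0.15, -0.01, 0.07 and -0.07.

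The work used limma 3.58.1 under R 4.3.3. Background was corrected by normexp (offset 50) with parameters estimated without spots marked as outliers, and ratios were normalized by loess (span 0.3) with control spots at weight 0. Per-animal log2 levels came from A-quantile normalization of these arrays. Probes were kept (25144) if 4 or more of 8 channels were well above background and every array gave a ratio, and the brightest probe stood for a gene (18858 features, 2406 named through RefSeq accessions of Sscrofa11.1). A group of a member that was dim on all its arrays did not occur among the probes tested, so no fold is a bound. limma's lmFit and eBayes estimated the ratio beside a dye effect, and p-values were adjusted by Benjamini-Hochberg across the whole table.

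The labels give 8 separate gilts, and n counts pairs. All 8 measured members were named. From the lists, genes at an unadjusted p under 0.05 and the 2 brightest were named, and 2 others as stated. Some genes these rules cover are not reported here. The members and lists were chosen with earlier results of these data known.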

Additional observations from a re-analysis of the deposited data

Results flagged for a closer look

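In 54 groups of 4 values, the array ratios and the pregnant and cyclic levels of the 8 measured genes and the array ratios of the listed genes, 1 held a value far from the other 3 for its range. Chance gives such a value in about 1 of 20 groups. It was SPINT1, an inhibitor of membrane serine proteases, with -0.83 on array 2 and between -0.16 and -0.07 on arrays 1, 3 and 4.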

How the results depend on the processing

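The tested alternatives were other background parameters, offset, intensities, normalization, dye model, filter and probe choice, and leaving out each array. Features at limma's adjusted threshold numbered 0 and became 2 with an offset of 10 and 3 with separate channels. The 1361 features at an unadjusted p under 0.05 became 2498 with separate channels and 2335 without a filter on dim probes, where 35784 features were tested, and between 617 and 2175 with 1 array left out. Of the 8 genes, 2 instead of 1 were at that threshold with parameters from all spots and with separate channels (HYAL2 and TIMP2 in both), and between 1 and 3 with 1 array left out. Their median of -0.09 was 0.035 with 1 dye orientation and between -0.168 and -0.042 with 1 array left out. The other proteases had 3 genes with parameters from all spots and 2 with every probe as a feature. The inhibitors had 1 with 1 dye orientation, 4 with separate channels, 1 with every probe as a feature and between 0 and 2 with 1 array left out. The hyaluronan genes had 1 with an offset of 10, with processed intensities under loess, with median centring and with processed ratios as they stand, and between 1 and 3 with 1 array left out. Of all features tested, between 3.27% and 13.2% were at an unadjusted p under 0.05 over the settings.

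With 1 dye orientation the sign turned for MMP2 (0.072), MMP9 (0.0085), TIMP1 (0.26), TIMP2 (0.062), HYAL1 (-0.18), HYAL2 (0.24), PLAU (-0.63, unadjusted p = 0.0168) and PLAT (-0.026), and among the other genes named for CTSD (0.047), CST3 (0.064), HEXA (0.063), RAP2B (0.145), CHGB (0.101), LSM2 (0.0016) and MMP14 (-0.278). With parameters from all spots it turned for TIMP1 (0.061), HYAL1 (-0.044), PLAU (-0.12), CST3 (0.0044) and CHGB (0.28), with every probe as a feature for CTSB (-0.21), and with median centring for HYAL3 (-0.055). With 1 array left out the sign turned in some cases for TIMP1 (from -0.226 to 0.108), HYAL1 (from -0.025 to 0.077), PLAT (from -0.049 to 0.528), CSTB (from -0.089 to 0.163), MMP14 (from -0.012 to 0.282) and HYAL3 (from -0.016 to 0.161). The fit with 1 dye orientation has no dye term. As the dyes are balanced over the arrays, its estimate is the fitted excess of red over green with the sign turned. That excess was -0.24 for HYAL2 and 0.63 for PLAU. With 1 array left out, the array alone in its dye orientation weighed as much as the other arrays together. Such an estimate is not the plain mean of the remaining ratios. With every probe as a feature, the value of a gene is the median over its tested probes. Why signs turned in the remaining settings was not tested. HYAL2 kept its sign and an unadjusted p under 0.05 in 14 of 15 alternatives, all but 1 dye orientation. HYAL1 was too dim for the filter of all 8 channels. Every fit of ratios is paired by array. The fit of separate channels instead takes the levels of single channels, with 1 correlation between the channels of a spot for all features.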
